A study of Mus musculus with 18 samples.

Results

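The static comparison set IMCD3 cells that lack Ift140 against wild-type IMCD3 cells, both kept without flow. IMCD3 is an epithelial cell line made from mouse kidney, from the collecting duct of the inner medulla, and its cells carry primary cilia. The comparison holds 6 of the 18 RNA libraries of the study, 3 per group. Of 49845 gene names per library, 15362 with at least 1 TPM (a length-corrected share of all transcripts in a library) in 3 or more of the 6 libraries were kept. A further 19095 names were listed at 0 in all 6. The wild-type and the Ift140 knockout group were kept static for 3 h in microslide chambers, and both genotypes also have a flow group, held for 3 h under fluid shear of 0.7 dyne/cm2. A static Dync2h1 knockout group served as the other cilium mutant. Per the labels all groups share the background Tg(SV40E)bri/7 and passage 10 to 15. The labels do not say how many clones stand for the knockout line or whether replicates were separate cultures, so the p-values measure only the spread between these libraries, which may be technical.

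The primary cilium is a single antenna on the apical side of tubule cells. Intraflagellar transport carries proteins along it, with the IFT-B complex and kinesin-2 moving toward the tip, and the IFT-A complex, which contains Ift140, together with the dynein-2 motor moving back to the base. IFT-A also brings membrane receptors into the cilium, and loss of IFT-A genes can cause cystic kidney disease in mice and humans. The comparison asks how the transcriptome of collecting duct cells differs when this complex is broken and no flow is applied.

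Ift140 (GRCm38, chromosome 17, 25016085 to 25099495) was read first as a check of the labels. Wild-type static libraries held 16.4, 19.3 and 18.8 scaled TPM and knockout static libraries 6.25, 6.37 and 7.37. The groups did not overlap, which held for 40.1% of all genes tested. The log2 difference, knockout minus wild type on log2(scaled TPM + 1), was -1.32 (SE 0.18) with adjusted p = 0.00012 in limma, with Benjamini-Hochberg adjustment over all genes tested. The means were 6.66 TPM in the knockout and 18.2 TPM in wild type, so the RNA was lowered and not lost. The labels do not give the position of the mutation in the gene.

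Across the transcriptome 2840 genes passed an adjusted p of 0.05, which is 18.5% of the genes tested. Of these 1379 rose (8.98%) and 1461 fell (9.51%). The balance of rises and falls depended on the scaling between libraries. With TPM as deposited 1533 rose and 1078 fell. The median log2 difference of all genes was -0.02, with quartiles at -0.24 and 0.20. Differences of at least 2-fold that passed were fewer, at 428 (2.79%), with 154 rises (1%) and 274 falls (1.78%). Without wild-type static replicate 1 the falls numbered 967 and without the Ift140 knockout flow replicate 3, which enters the shared estimate of spread, 1988. The library labelled Ift140 knockout static replicate 3 stood apart from its group, with a scaling factor of 1.14 and 1.75% of its TPM on small nucleolar RNAs against 3.25% to 3.75% in the other 5 static libraries, and 2046 genes passed without it. Counts of gene lists that move without it are given beside those lists. All static list counts are to be read beside the 8.98% rises and 9.51% falls over all genes.

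The largest falls took single genes from clear expression to almost nothing. Serpinh1 (GRCm38, chromosome 7, 99345376 to 99353239) encodes the collagen chaperone HSP47 of the endoplasmic reticulum. It stood at 115, 107 and 121 TPM in wild type and at 0.163, 0.106 and 0.123 TPM in the knockout, a log2 difference of -6.67 (SE 0.08, adjusted p = 1.01e-17). Cubn (chromosome 2, 13276338 to 13491813) encodes cubilin, an endocytic receptor for filtered proteins and vitamin B12 carriers. It fell from 404, 406 and 414 TPM to 2.27, 3.48 and 3.99, a log2 difference of -6.61 (SE 0.15, adjusted p = 5.72e-14). In bulk RNA, fewer cells that express a gene and less of its RNA per cell cannot be told apart. The 2 genes behaved differently in the other cilium mutant. Cubn was also low in the Dync2h1 knockout (-6.35 against the same wild-type libraries), and the Ift140 and Dync2h1 lines did not differ beyond the test (adjusted p = 0.227). Serpinh1 fell by 0.88 in the Dync2h1 line, and the 2 lines differed (adjusted p = 9.33e-17).

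The stretch of 250 bases upstream of each transcription start is shown for these 2 genes, since they had the largest falls on log2(scaled TPM + 1). With a pseudocount of 0.1 the falls of Grb10 (-7.67) and Kif21a (-7.32) were larger than that of Cubn (-6.97). Capitals mark the CG dinucleotides, the letters that DNA methylation can act on. Both are on the minus strand and come from RefSeq on GRCm38.p6, Cubn at chr2:13491877-13492126 and Serpinh1 at chr7:99353240-99353489.
Cubn: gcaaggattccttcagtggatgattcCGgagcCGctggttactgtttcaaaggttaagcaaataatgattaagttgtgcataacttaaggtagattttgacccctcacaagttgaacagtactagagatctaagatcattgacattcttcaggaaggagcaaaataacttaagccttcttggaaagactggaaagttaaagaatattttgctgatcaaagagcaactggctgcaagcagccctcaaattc
Serpinh1: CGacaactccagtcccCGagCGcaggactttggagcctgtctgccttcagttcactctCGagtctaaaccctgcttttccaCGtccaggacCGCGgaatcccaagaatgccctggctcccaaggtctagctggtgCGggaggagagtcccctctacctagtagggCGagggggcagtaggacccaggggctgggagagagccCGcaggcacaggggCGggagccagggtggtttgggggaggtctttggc
The motif CG, which reads the same on both strands, occurred 2 times in the Cubn stretch and 11 times in the Serpinh1 stretch. Of 32851 upstream stretches of this length 81.2% held at least as many as Cubn and 35.6% at least as many as Serpinh1, and the median was 6. Methylation was not measured, and the counts only describe the letters.

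Several other genes were switched off. Ank2, which encodes the membrane adaptor ankyrin-B, stood at 41.4, 37.9 and 38.8 TPM in wild type and at 0.599, 0.397 and 0.00876 in the knockout (-4.94, SE 0.24, adjusted p = 1.42e-09). Grb10, an imprinted gene for an adaptor that restrains insulin and IGF receptors, was at 22.1, 30.3 and 26.6 TPM and at 0.112, 0 and 0 in the knockout, where 2 libraries list it at 0 (adjusted p = 7.42e-13). Kif21a, which encodes a kinesin that acts on microtubule ends near the cell cortex, was at 17, 14.9 and 17.2 TPM and listed at 0, 0.00967 and 0 in the knockout (adjusted p = 2.39e-11). All 3 were low in the Dync2h1 line as well, by -5.23, -4.74 and -3.58 against wild type. Ank2 and Grb10 did not differ between the knockout lines beyond the test (adjusted p = 0.431 and 0.906), while Kif21a did (adjusted p = 0.016).

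Genes of lower level were lost too. Serpinb8, a protease inhibitor gene, was at 6.48, 6.01 and 8.01 TPM in wild type and listed at 0 in the 3 knockout libraries. Twist1, a transcription factor of mesenchymal cells, went from 5.42, 5.08 and 5.67 TPM to 0.162, 0.0677 and 0.035 (adjusted p = 1.33e-09). Serpinb8 and Twist1 were low in the Dync2h1 line as well, at -2.48 and -2.49 against wild type.

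Enzyme genes were also among the large falls. Pygl, the liver-type glycogen phosphorylase, fell from 19.8 ± 1.25 to 0.433 ± 0.197 TPM (SD, n = 3 each). Asph, an aspartate beta-hydroxylase of the endoplasmic reticulum, fell from 39.7 ± 2.9 to 2.42 ± 0.151 TPM. Adh7, an alcohol dehydrogenase that acts on retinol, fell from 143 ± 5.69 to 22.3 ± 2.16 TPM. Nqo1, a quinone reductase and a textbook NRF2 target, fell from 14.4 ± 2.24 to 0.978 ± 0.802 TPM. Asph and Nqo1 differed between the knockout lines (adjusted p = 9.6e-10 and 7.14e-08), with Dync2h1 values of -0.33 and 0.29 against wild type. Pygl and Adh7 were low in the Dync2h1 line as well, at -4.38 and -2.255. The deubiquitinase gene Usp11 (-3.10), the secreted protease homologue Pamr1 (-3.02), the membrane-binding annexin Anxa8 (-2.88) and the vesicle priming factor Cadps2 (-2.73) fell too. Their Dync2h1 values against wild type were 0.13, -1.73, -1.16 and -2.95. Snord33 and Snord16a complete the list of 15, but as small RNAs inside other genes their values are uncertain and each lost its call when single libraries were left out.

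The largest rise was a gene switched on. Ap1m2 (chromosome 9, 21294275 to 21312337) encodes the medium subunit of AP-1B, the clathrin adaptor by which epithelial cells sort proteins to the basolateral membrane. It was listed at 0, 0 and 0.0492 TPM in wild type and stood at 15.7, 12.4 and 17.2 TPM in the knockout, a log2 difference of 3.97 (SE 0.12, adjusted p = 2.98e-12). It was higher still in the Dync2h1 line (6.26 against wild type), and the lines differed (adjusted p = 2.23e-09). Lrp2 (chromosome 2, 69424340 to 69586065) encodes megalin, the partner receptor of cubilin. It rose from 23.9, 20.8 and 20.5 TPM to 77, 79.7 and 82 TPM, by 1.83 (SE 0.15, adjusted p = 6.96e-07). The Dync2h1 line lay on the other side of wild type, at -2.04, and the lines differed (adjusted p = 6.15e-11). The pair of receptors that form one complex in the proximal tubule thus moved in opposite directions in the Ift140 line.

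Other large rises included secreted and surface proteins. Fst, which encodes the activin-binding protein follistatin, rose from 67.5, 63.8 and 77.2 to 218, 212 and 237 TPM (1.67, SE 0.08, adjusted p = 1.45e-09). Ctgf, a matricellular protein gene and YAP target, rose from 68.5, 79.2 and 94.7 to 255, 251 and 242 TPM (1.62, SE 0.10, adjusted p = 3.68e-08). Bst1, an ADP-ribosyl cyclase of the cell surface, rose by 1.83, the endothelial lipase gene Lipg by 1.84 and the complement regulator Cd59b by 1.85. Ms4a2, the beta chain of the IgE receptor, rose from 1.83 ± 0.594 to 10.4 ± 2.18 TPM, the serine protease gene Prss22 from 4.13 ± 0.931 to 14.6 ± 1.17 TPM and the membrane protein gene Emp3 from 2.69 ± 0.802 to 9.88 ± 2.57 TPM (SD, n = 3). Arhgdig (2.07) and Rgs11 (1.62) lie over each other on chromosome 17, at 26199183 to 26207786 and 26202951 to 26211324. Reads of one could thus be counted for the other. Arhgdig was also high in the Dync2h1 line, at 1.96 against wild type. Rgs11 lost its call without wild-type static replicate 1 (adjusted p = 0.0612) and Mir705 with a pseudocount of 0.1 (adjusted p = 0.0744). The values of mt-Co2, Rpl10 and Mir705, which share sequence with copies or with longer transcripts, are uncertain, and mt-Co2 lost its call without wild-type static replicate 1, without wild-type static replicate 3 and without knockout static replicate 3, with adjusted p up to 0.0734.

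**Figure D1:**
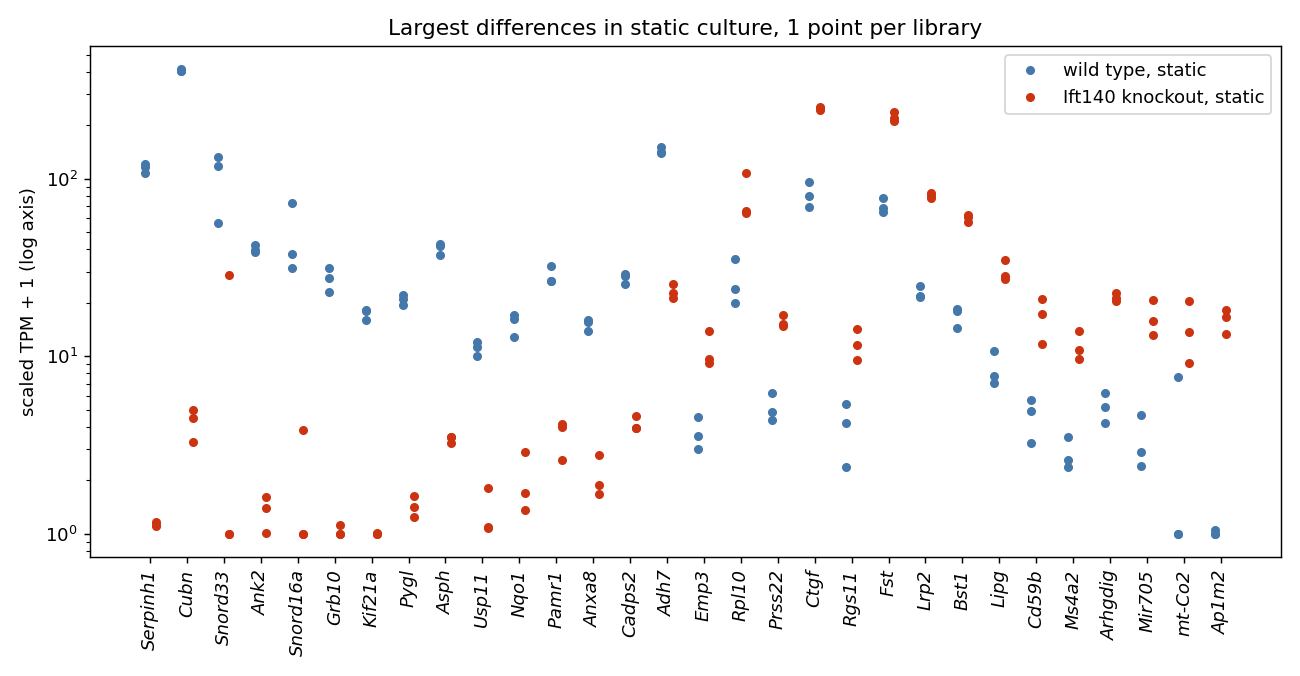
Scaled TPM + 1 on a log axis for each of the genes with the largest static differences, with 1 point per library, blue for wild type and red for Ift140 knockout. From left to right the genes run from the largest fall (Serpinh1, -6.67) to the largest rise (Ap1m2, 3.97). The gap between the groups is narrow for some genes, such as Snord33, whose 3 knockout libraries spread from 0 to 27.6 TPM, and mt-Co2. It is also narrow for Rgs11 (at most 4.36 TPM in wild type, at least 8.49 in the knockout) and Rpl10 (34.3 and 63.5 TPM). Only genes whose groups did not overlap could enter, so this gap was set by the choice of genes.

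Chromosome 17, which carries Ift140, had the median farthest from 0 of the 20 chromosomes compared in the knockout. Of its 711 kept genes 228 rose (32.1%) and 15 fell (2.11%), and 82.6% had a positive difference. The median log2 difference was 0.30 on this chromosome and -0.03 on the genes off it. No other chromosome had a median below -0.11 or above 0.09. The 228 rises were 16.53% of all rises, from a chromosome that holds 4.628% of the genes. Among 550 chromosome 17 genes with a mean of at least 5 TPM, the median ratio of knockout to wild-type means was 1.28, against 0.976 for genes of that level elsewhere.

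The shift was present in each knockout library. Relative to all other chromosomes, the median log2 difference from the static wild-type mean was 0.324, 0.331 and 0.370 in the 3 static knockout libraries and between -0.0129 and 0.00903 in the static wild-type libraries. Under flow the 3 knockout libraries gave 0.309, 0.320 and 0.319, and the 3 static Dync2h1 knockout libraries -0.0432, -0.0191 and -0.00437. On the other chromosomes the static knockout libraries lay between -0.0829 and 0.131, and the static wild-type libraries between -0.00924 and 0.00904. The static wild-type values are taken from their own mean, which holds them near 0. The static knockout and wild-type libraries also did not overlap on other chromosomes, such as 12 and 15, so a lack of overlap does not set chromosome 17 apart. The shift ran over the length of the chromosome, with medians of 0.31, 0.30, 0.31, 0.24 and 0.32 in successive windows of 20 Mb. It was 0.18 for genes under a mean of 5 TPM, 0.28 between 5 and 20 TPM, 0.35 between 20 and 100 TPM and 0.37 above 100 TPM. The added 1 TPM holds differences of low genes down. Median ratios of group means, which hold no added TPM, were 1.213, 1.237, 1.295 and 1.289 in these classes. Why the shift was smaller in low genes was not tested. Chromosome 17 held 2.91% ± 0.00551 of all TPM in static wild type and 3.91% ± 0.286 in the static knockout (SD, n = 3). DNA copy number was not measured here. A further, smaller shift was seen on part of chromosome 15, with 85 rises and 35 falls among its 523 genes and a median of 0.09. Its windows of 20 Mb had medians of 0.19, 0.15, 0.15 and 0.18 up to 80 Mb, and of -0.01 and -0.02 beyond. Chromosome 12 leaned to the other side, with 37 rises and 73 falls among 516 genes and a median of -0.11. The medians of the Dync2h1 line against the same wild-type libraries were 0.16 on chromosome 15 and 0.08 on chromosome 12. Low chromosome medians were also seen in that line, at -0.33 on chromosome 1, -0.31 on chromosome 6 and -0.17 on chromosome 5. The Ift140 line lay at -0.02, -0.03 and -0.05 there. Along chromosome 1 all windows of 20 Mb of the Dync2h1 line were low, between -0.38 and -0.18. Its shift did not span chromosome 6, with -0.41 up to 20 Mb, -0.12 from 120 to 140 Mb and 0.25 from 140 to 160 Mb. On chromosome 5 its windows were uneven, between -0.27 and -0.003.

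**Figure D2:**
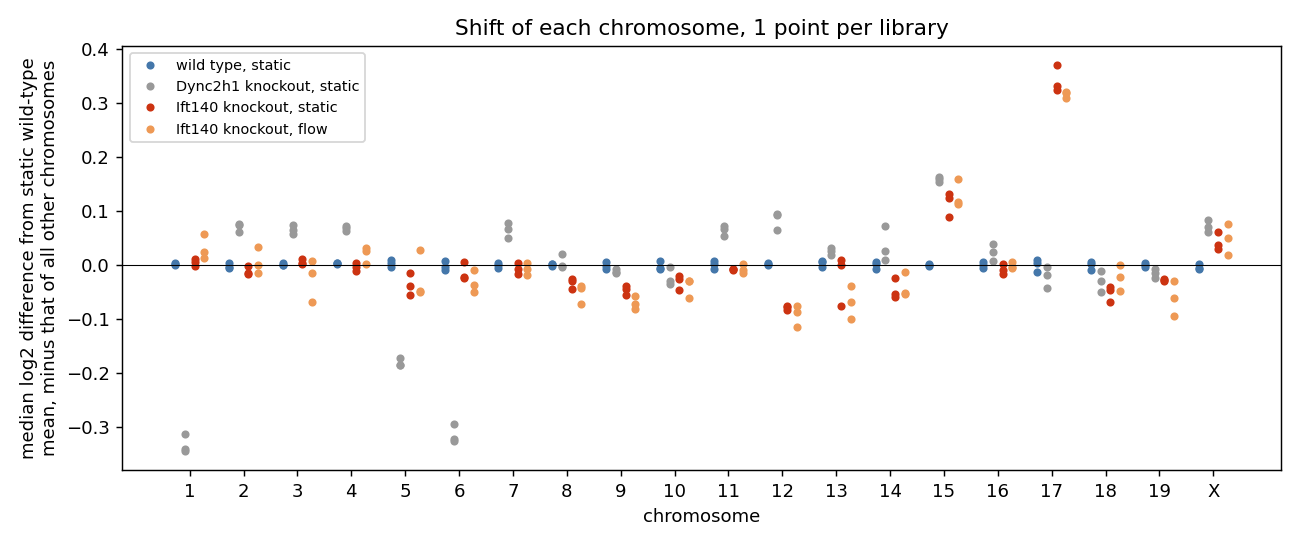
Median log2 difference of each chromosome from the static wild-type mean, minus that of all other chromosomes, with 1 point per library, for static wild type (blue), static Dync2h1 knockout (grey), static Ift140 knockout (red) and Ift140 knockout under flow (orange). On chromosome 17 the 6 Ift140 knockout points lie between 0.309 and 0.370, while the wild-type and Dync2h1 points lie near 0.

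Genes next to Ift140 were read separately. Within 250 kb of the gene 18 genes were kept, Ift140 included. Ift140 fell, 7 rose and the other 10 did not pass, with Hagh at -0.03 and Fahd1 at 0.04. Telo2, which encodes a maturation factor of PI3K-related kinases and lies just past the end of Ift140, rose from 25.3 to 43.3 TPM (0.75, SE 0.09, adjusted p = 4.85e-05). Hn1l, on the other side, rose from 47.8 to 61.5 TPM (0.36, SE 0.09, adjusted p = 0.011).

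Larger rises on chromosome 17 went past this shift. Epb41l3, a membrane skeleton protein gene, rose from 44.2 to 103.4 TPM (1.21, SE 0.08), and Crim1, which encodes a membrane protein that binds BMPs, from 54.8 to 126.8 TPM. Both differed from the Dync2h1 line (adjusted p = 5.58e-08 and 2.04e-08). Srf, the transcription factor of serum response, rose by 0.68, and Cbs, an enzyme of homocysteine metabolism, by 0.88. Against this, Angptl4, a lipase inhibitor induced by fatty acids, fell from 16.04 to 3.92 TPM (-1.80, SE 0.14, adjusted p = 3.48e-07) and Ltbp1, which stores latent TGF-beta, from 18.2 to 5.58 TPM (-1.53, SE 0.18). Chromosome 17 genes named in the groups that follow are marked, and their differences can be read beside the median of 0.30. These chromosome 17 genes were picked after their values were seen, except those that the lists name.

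Y-linked genes fell. Of 9 kept genes of chromosome Y, the 4 protein-coding ones, Ddx3y, Eif2s3y, Kdm5d and Uty, all fell, by 0.64, 0.66, 0.68 and 0.68 on the log2 scale, and the others did not pass. Uty, a histone demethylase relative, stood at 152, 140 and 135 TPM in wild type and at 92.7, 91.7 and 80.8 TPM in the knockout. The Dync2h1 line lay at -0.81, -0.32, -0.72 and -0.92 for these 4 genes against wild type.

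Falls of cilium genes that passed lay mostly in the IFT-A, transition zone and BBSome lists. The IFT-B and dynein-2 lists held 1 fall each, near or under the share over all genes. The median of the IFT-B list was -0.31, lower than the -0.24 of the BBSome list, and that of the dynein-2 list was -0.03. Of the 7 IFT-A genes 4 fell, Ift140 included, with a median of -0.43, beside 9.51% falls over all genes. Wdr19 (IFT144), an IFT-A core subunit, stood at 46, 51.5 and 54.8 TPM in wild type and at 32.7, 29.4 and 19.5 TPM in the knockout (-0.91, SE 0.15, adjusted p = 0.000606). Ift122 stood at 43.1, 40.7 and 43.4 against 33, 29.4 and 31.5 TPM (-0.43, SE 0.11, adjusted p = 0.011). Wdr35 and Ift43 did not pass, at -0.35 and -0.20. Ttc21b was the fourth call, at adjusted p = 0.0398, and lost it in 6 of 18 alternatives, 5 of them left-out libraries, with adjusted p up to 0.128.

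Transition zone genes, which gate the ciliary base, held 7 falls and no rise among 25 kept members, with a median of -0.38. Cc2d2a fell from 39.5, 36.9 and 34.9 to 14.8, 18 and 16.5 TPM (-1.13, SE 0.16, adjusted p = 0.000182), and Rpgrip1l and Cep290 by 0.45 and 0.61 on the log2 scale. The BBSome, a coat that carries membrane proteins through the cilium, held 4 falls and no rise among 13, with Bbs2 at -0.61 (SE 0.14, adjusted p = 0.00636). Of the 20 IFT-B and kinesin-2 genes only Ttc30b passed (-0.52, SE 0.12, adjusted p = 0.00595), and the dynein-2 list held 1 fall among 9, which was lost on TPM as deposited. With quantile normalisation 4 transition zone genes fell. Without the knockout static replicate 3 the falls were 3 of 25 in the transition zone, 2 of 13 in the BBSome and 3 of 7 in IFT-A. In the Dync2h1 line, which shares the wild-type libraries, the falls were 10 of 25, 3 of 13 and 3 of 7. Over all genes of that contrast 13.9% fell and 14.1% rose. Under flow fewer falls of the Ift140 knockout passed, at 5 of 25, 1 of 13 and 1 of 7, where 8.68% of all genes fell. The IFT-A fall under flow was Ift140 itself, and 1 IFT-A gene rose. The medians under flow were -0.23, -0.25 and -0.24.

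Hedgehog signalling, which runs through the vertebrate cilium, held 1 rise and 1 fall among 8 kept genes. The shares over all genes were 8.98% and 9.51%. The receptor gene Ptch1 rose and the co-receptor gene Cdon fell, and neither passed on TPM as deposited (adjusted p of 0.0526 and 0.154). With that scaling the list held 1 rise, of another member. The call of Ptch1 was lost in 11 of 18 alternatives. The signal transducer gene Smo stood at 124, 129 and 135 against 125, 123 and 140 TPM. Polycystic kidney genes held 2 falls among 16 (12.5%), near the 9.51% over all genes. Pkhd1 (-0.44, adjusted p = 0.0073) and Pkd2 (-0.34, adjusted p = 0.00906) fell, though each missed the threshold with the deposited scaling (adjusted p = 0.072 and 0.0715), and the other 14 did not pass. In the Notch list Jag1, a ligand, rose from 75.7, 71 and 87.7 to 144, 141 and 139 TPM (0.85, SE 0.12, adjusted p = 0.000149) and Hey2, a target, by 1.00, while Lfng, which modifies the receptor, fell by 0.60. Jag1 lay at -1.10 in the Dync2h1 line, and the lines differed (adjusted p = 9.49e-09). Of 21 WNT genes 4 rose and 3 fell, where 8.98% and 9.51% did over all genes. The rises held the receptor Fzd6 (0.53) and the ligands Wnt7a (0.58) and Wnt7b (0.36), and the falls Fzd1 (-0.66).

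ERK feedback genes rose in most members. These genes are switched on by ERK kinase and mostly act to damp it. Of 17 kept members 11 rose and none fell (64.7%), with a median of 0.56. The Dync2h1 line was much alike, with 10 rises, no fall and a median of 0.58, where 14.1% of all genes rose. Epha4, an ephrin receptor, rose from 26.2, 26.5 and 26.8 to 78.6, 70.9 and 75.8 TPM (1.47, SE 0.09, adjusted p = 1.3e-08). Dusp6, the ERK phosphatase, rose from 24.4, 22.1 and 24.2 to 61.3, 58.2 and 69.8 TPM (1.38, SE 0.09, adjusted p = 3.54e-08). Etv4, a transcription factor of this pathway, rose by 1.14 (SE 0.11), and Ier3, on chromosome 17, by 1.36 (SE 0.10). All 4 pairs of groups were without overlap, which held for 40.1% of all genes tested. List members that passed were named by smallest p, so this adds no weight. The count was 11 of 17 without the knockout static replicate 3 and under each of the 4 scalings. The flow contrast of the same knockout held fewer, with 6 rises, no fall and a median of 0.21, where 6.56% of all genes rose.

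The EGF receptor list, upstream of ERK, split. Among 9 kept members 4 rose and 4 fell, where 8.98% and 9.51% did over all genes. The falls were 2 with the deposited scaling and 2 without the knockout static replicate 3. The receptor Erbb3 fell from 89.6, 86.9 and 98.3 to 60.3, 54.9 and 50.5 TPM (-0.72, SE 0.08, adjusted p = 1.45e-05), while the ligand Nrg1 rose from 21.3, 20 and 17.3 to 28.1, 33.2 and 32.2 TPM (0.65, SE 0.11, adjusted p = 0.001). The receptor Erbb2 fell by 0.39 and missed the threshold with the deposited scaling (adjusted p = 0.102). Errfi1, an inhibitor of the receptor, rose by 0.34. Erbb3 and Nrg1 differed from the Dync2h1 line (adjusted p = 1.25e-06 and 2.18e-05).

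The YAP and TAZ list held 7 rises and 1 fall among 18 members, with a median of 0.27. It mixes targets, which answer to cell tension and spreading, with factors of the pathway such as Yap1 and Tead1. In the Dync2h1 line 6 rose and 5 fell, with a median of 0.08, where 14.1% of all genes rose and 13.9% fell. Besides Ctgf and Crim1, the latter on chromosome 17, Cyr61 rose from 202, 222 and 242 to 539, 501 and 533 TPM (1.24, SE 0.11, adjusted p = 9.97e-07) and Amotl2 by 0.60. Among the actin and SRF targets 6 of 21 rose and none fell. Fhl2, a LIM protein of actin filaments, rose from 114, 110 and 114 to 195, 194 and 203 TPM, and Acta1 and Actg1, actin genes, by 1.45 and 0.60. Actb, the cytoplasmic beta-actin gene, stood at 2670, 2944 and 2928 TPM in wild type and at 3283, 3181 and 3333 TPM in the knockout and did not pass (adjusted p = 0.158).

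Matrix genes went both ways. Thbs1, thrombospondin, rose from 229, 220 and 238 to 504, 486 and 471 TPM (1.09, SE 0.09, adjusted p = 7.67e-07), Tnc, tenascin C, by 1.43, Spp1, osteopontin, by 0.99 and Timp3, a protease inhibitor, by 1.49. Of 18 interstitial matrix genes 6 rose and 2 fell. The fibroblast markers, checked beside them, summed to 5.17 to 6.83 TPM in wild type and 1.40 to 3.42 TPM in the knockout. Among 21 basement membrane genes 4 rose and 6 fell. Lama3, a laminin chain, fell from 89.6, 84.6 and 92.9 to 40.3, 44.4 and 48.2 TPM (-0.99, SE 0.09), and Nid2, nidogen 2, rose from 30.9, 30.3 and 31.1 to 54.1, 53.7 and 57.7 TPM (0.82, SE 0.12). The Dync2h1 line stood on the other side of wild type for both, at 0.56 and -2.74, and the lines differed (adjusted p = 2.88e-09 and 6.85e-12). The integrin gene Itga2, a collagen receptor subunit, fell from 27.3, 33.2 and 31.8 to 9.78, 10.3 and 10.9 TPM (-1.48, SE 0.15).

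Epithelial identity genes changed in part. Cdh16, the kidney cadherin, fell from 377, 380 and 382 to 239, 262 and 264 TPM (-0.57, SE 0.07, adjusted p = 3.79e-05), and the desmosome gene Pkp1 by 0.78. Of 27 junction genes 6 rose and 5 fell, beside 8.98% and 9.51% over all genes, and 3 fell with the deposited scaling. Ehf, an epithelial transcription factor, fell from 123, 104 and 124 to 57.7, 73.7 and 67 TPM. Keratin genes Krt8, Krt18 and Krt20 rose by 0.56, 0.47 and 1.80, and vimentin, Vim, fell by 0.50. Among the 19 renal transcription factors 2 rose and 2 fell, near the shares over all genes (8.98% and 9.51%). Hoxb9 (0.92) and Hoxa11 (0.56) rose, Hoxa11 with a call lost in 6 of 17 alternatives, Hoxd8 (-1.19) and Irx1 (-0.91) fell, and Pax8 stood at 0.11 and did not pass.

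The cells were checked against collecting duct markers. Of 15 principal cell markers 9 were under 1 TPM in all 6 libraries, and the water channel Aqp2 was listed at 0 in the wild-type libraries and reached 0.0438 TPM in the knockout. The summed level of the 15 was 1970 to 2111 TPM in wild type and 2787 to 3066 TPM in the knockout, and Krt8 and Krt18 made up most of it, with Krt8 at 1125 to 1178 TPM in wild type and 1636 to 1820 TPM in the knockout. The intercalated cell list summed to 2.31 TPM at most. Proximal tubule markers summed to 437.3 to 447 TPM in wild type and 87 to 94.5 TPM in the knockout, which was Cubn and Lrp2 for the most part, while Slc34a1, Slc22a6 and Hnf4a were listed at 0 in all 6 libraries. Podocyte, endothelial and leukocyte lists summed to no more than 25.1 TPM in any library. Thick limb and distal tubule markers summed to 61.9 to 68.9 TPM in wild type and 41.9 to 46.8 TPM in the knockout.

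Glycolysis and hypoxia-inducible genes rose in 14 of 28 kept members and fell in 2, with a median of 0.37. In the Dync2h1 line 15 rose and 1 fell, with a median of 0.42. Hk2, a hexokinase, rose from 28.5, 26.2 and 32 to 65.2, 58.7 and 65.7 TPM (1.10, SE 0.11, adjusted p = 3.95e-06), Slc2a1, the glucose transporter GLUT1, from 143, 132 and 141 to 200, 203 and 204 TPM (0.54, SE 0.07) and Vegfa, on chromosome 17, by 0.78. The oxygen sensor gene Egln3 fell from 7.11, 6.73 and 6.2 to 1.15, 1.15 and 1.1 TPM (-1.85, SE 0.11). Pkm stood at 0.20 and did not pass. Slc16a3, the lactate exporter MCT4, rose from 23.1, 23.2 and 23.8 to 59.3, 62 and 71.9 TPM (1.42, SE 0.08, adjusted p = 7.66e-09), and of 16 nutrient carriers 7 rose and 1 fell. The scalings gave 14 or 15 glycolytic rises, and 11 were left without the knockout static replicate 3.

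Fatty acid oxidation genes went the other way. Of 14 kept members 6 fell and none rose, with a median of -0.40. In the Dync2h1 line 6 fell and 2 rose, with a median of -0.36. Cpt1a, the entry enzyme of mitochondrial fatty acid oxidation, fell from 34.1, 29.8 and 31.8 to 15.4, 19.9 and 15.4 TPM (-0.89, SE 0.15, adjusted p = 0.000691) and Acadm, medium-chain acyl-CoA dehydrogenase, from 86.4, 83.1 and 81.7 to 55.7, 52.6 and 47.9 TPM (-0.68, SE 0.12). Ppargc1a, a coactivator of mitochondrial genes, fell from 1.72, 1.05 and 1.27 to 0.244, 0.058 and 0.0526 TPM. In the synthesis list 7 of 28 rose and 1 fell, or 4 and 0 without the knockout static replicate 3, with Scd1, the fatty acid desaturase, at 1.40 (21.8, 24.5 and 24 against 65.6, 59.4 and 65.2 TPM) and the sterol enzyme Sqle at 0.72. Fasn stood at 0.11 and did not pass.

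Heat shock genes rose in 8 of 13 members and fell in none, with a median of 0.37. In the Dync2h1 line 5 rose and 1 fell, with a median of 0.20. Without the knockout static replicate 3 the count was 5, and with quantile normalisation 6. Hspa1b, the inducible HSP70, rose from 29, 26 and 26.4 to 63.9, 66 and 77 TPM (1.31, SE 0.09, adjusted p = 1.37e-07), and Hsp90ab1 by 0.87. Both lie on chromosome 17. Hsp90aa1, on chromosome 12, rose from 618, 634 and 640 to 859, 816 and 944 TPM (0.47, SE 0.09, adjusted p = 0.00137). NRF2 targets held 5 falls and 1 rise among 19. Besides Nqo1, Gsr, glutathione reductase, fell from 311, 324 and 312 to 193, 191 and 154 TPM (-0.82, SE 0.10, adjusted p = 5.13e-05) and Txnrd1, thioredoxin reductase, by 0.47. Hmox1, heme oxygenase, rose by 0.77. Gsr and Txnrd1 differed from the Dync2h1 line (adjusted p = 3.29e-05 and 0.00454).

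Interferon-stimulated genes fell more often than they rose, 9 against 1 of 26, with a median of -0.48. Usp18, which restrains interferon signalling, fell from 27, 20 and 25.2 to 3.58, 4.12 and 7.5 TPM (-2.09, SE 0.32, adjusted p = 0.000288), and Ifih1, an RNA sensor, from 28.3, 25 and 29.6 to 13.7, 12.9 and 15.6 TPM (-0.93, SE 0.16). Oasl2 fell by 1.70. The exception was Ifit3, which rose from 36.6, 35.2 and 35.5 to 79.6, 70.3 and 84 TPM (1.10, SE 0.13, adjusted p = 2.57e-05). Of the list 7 members, such as H2-K1 and H2-D1 (0.25 and 0.05), lie on chromosome 17. The Dync2h1 line showed 8 rises and 1 fall in this list. Usp18 and Ifih1 differed between the lines (adjusted p = 3.55e-05 and 0.000592). Of 16 chemokine, cytokine and complement genes 1 rose and 4 fell, beside 8.98% and 9.51% over all genes, with a median of -0.07. Ccl2 fell from 6.87, 4.05 and 5.98 to 0.894, 0.629 and 0.561 TPM, and Vcam1, an adhesion molecule gene, by 1.94.

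Proliferation genes changed slightly. Of 24 replication genes 7 fell and 1, Uhrf1 on chromosome 17, rose, with Mcm6 at -0.35 and Pold1 at -0.40. Of 25 mitosis genes 5 fell and none rose, and Ccnb2 stood at -0.44 (adjusted p = 0.00681). Without the knockout static replicate 3 the falls were 4 and 2. Against these, Ccnd1, cyclin D1, rose from 10.5, 10.1 and 10.2 to 30.3, 27.6 and 31.1 TPM (1.44, SE 0.07, adjusted p = 2.56e-09) and Ccnd3, on chromosome 17, by 0.68. Ccnd1 was higher still in the Dync2h1 line (2.88), and the lines differed (adjusted p = 1.61e-09).

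**Figure D3:**
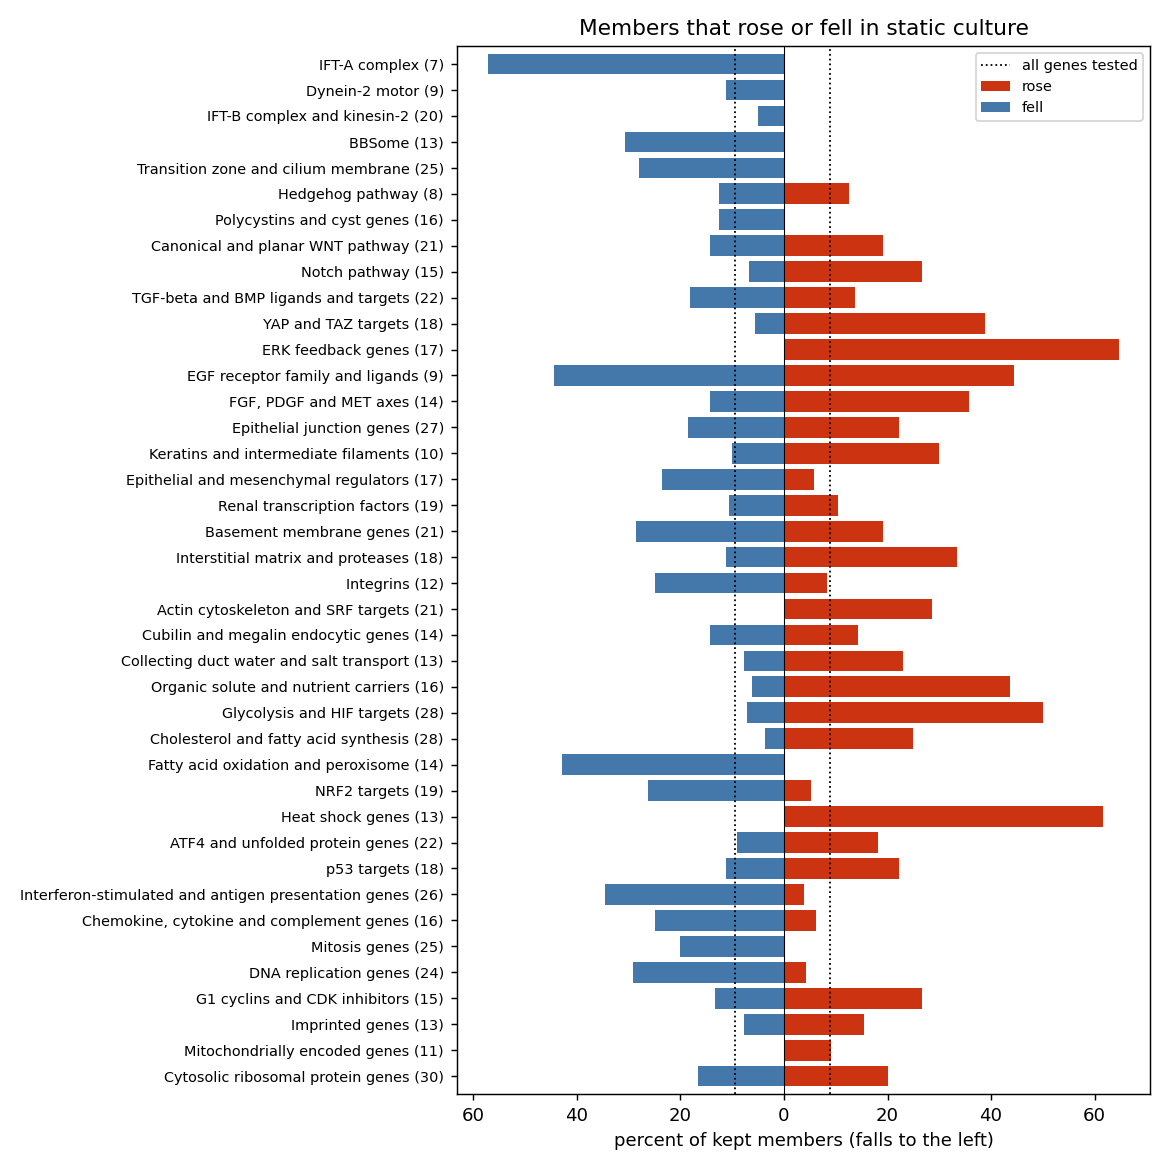
Percent of kept members that rose (red, to the right) and fell (blue, to the left) in static culture for each gene list, with the number kept in parentheses and dotted lines at the share among all genes tested (8.98% rose and 9.51% fell). ERK feedback genes reach 64.7% rises, glycolysis 50% and heat shock genes 61.5%, while IFT-A genes fall in 57.1% of 7 members.

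Gene type also moved with the difference. Of 1640 processed pseudogenes 334 rose and 22 fell, with a median of 0.18, while of 11622 protein-coding genes 886 rose and 1361 fell, with a median of -0.05. Their reads can come from the parent genes, and processed pseudogenes held 10.2% of the TPM in knockout static replicate 3, 8.92% and 9.03% in the other 2 and 7.64% to 8.16% in wild type. Their part in the counts above was not tested beyond a fit of protein-coding genes only, in which 922 rose and 1430 fell.

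The knockout was also set against wild type under flow. The static and the flow contrast compare different libraries. Both take their spread from the same fit of all 18 libraries, so their calls are not independent of each other. In flow 2341 genes passed (15.2%), 1007 as rises (6.56%) and 1334 as falls (8.68%), and 566 passed when only the flow groups compared were fitted. Of the static calls 1426 also passed under flow in the same direction, which is 50.2% of the static and 60.9% of the flow calls, and 94.6% of the static calls had the same sign, as did 74.3% of all kept genes. Across all kept genes the 2 differences had r = 0.656, a description across genes, which are not independent replicates. Of the 428 genes changed at least 2-fold in static culture 418 kept the sign and 313 passed under flow. Serpinh1 (-6.70), Cubn (-5.99), Ank2 (-4.72), Ap1m2 (3.86) and Lrp2 (2.09) were near their static values. Ift140 was lowered less under flow, at 7.60, 8.62 and 14.4 TPM in the knockout (-0.71, adjusted p = 0.0153). The flow minus static difference did not pass for it (adjusted p = 0.573), and the library with 14.4 TPM, replicate 3, had the lowest correlation with its group (mean r 0.961).

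**Figure D4:**
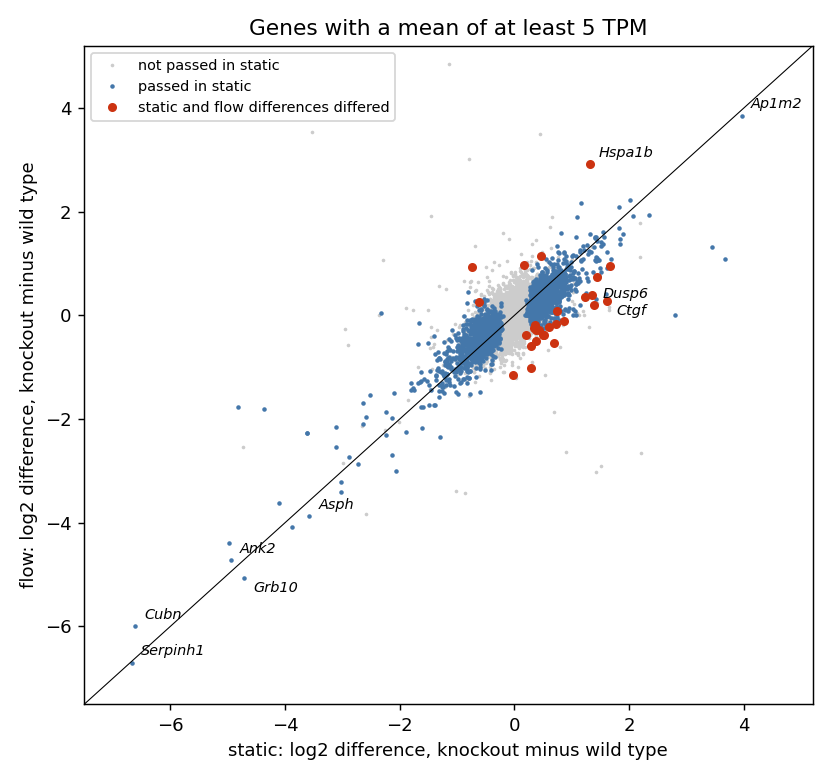
Log2 difference of knockout minus wild type under flow against the same difference in static culture, 1 point per gene with a mean of at least 5 TPM, where the line marks equal values. Blue points passed in static culture and red points are those whose 2 differences differed, of which Ctgf and Dusp6 lie below the line and Hspa1b (1.31 and 2.92) above it.

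Few genes differed between the contrasts. With the whole 18-library fit 30 genes passed for flow minus static (0.195%), 24 of them static calls. The count was 4 when only the 4 groups compared were fitted, and from 10 without Ift140 knockout static replicate 1 to 70 without Ift140 knockout flow replicate 3 when single libraries were left out. Of the 12 libraries of these groups only the knockout replicates 2, static (22) and flow (33), left the count within 1.5 times of 30. The static rise of Ctgf, Dusp6, Ier3, Cyr61, Ccnd1 and Fst was smaller under flow. Dusp6, for instance, stood at 220.7, 193 and 169 TPM in wild type under flow and at 227, 225 and 217 TPM in the knockout, a difference of 0.21 that did not pass (adjusted p = 0.127), where the static one was 1.38. Ctgf stood at 529, 503 and 512 against 709, 585 and 597 TPM under flow, 0.29 (adjusted p = 0.077) against 1.62 in static culture. For Hspa1b the opposite held. It stood at 69.2, 85.5 and 88.4 TPM in wild type under flow and at 664, 583 and 608 TPM in the knockout.

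**Figure D5:**
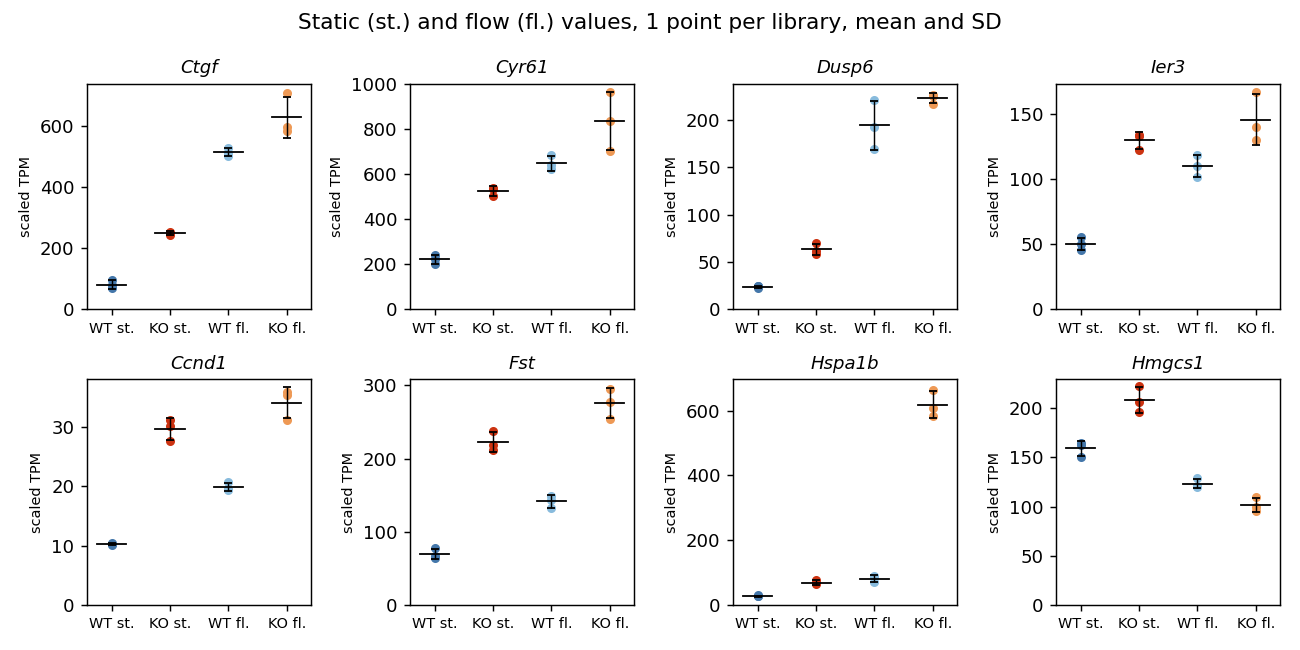
Scaled TPM of 8 genes whose knockout difference depended on flow, as points per library with the mean and SD of each group (st., static; fl., flow; WT, wild type; KO, Ift140 knockout). In static culture the knockout is above wild type for all 8 genes, whereas under flow the Dusp6 groups come close and Hspa1b reaches 583 to 664 TPM in the knockout.

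Set directly against the static Dync2h1 knockout, the Ift140 line differed in 3541 genes (23.1%), 1810 higher (11.8%) and 1731 lower (11.3%). Serpinh1, Asph and Lrp2, described above, were among them. The Dync2h1 line itself gave 4301 calls against the same wild-type libraries (28%).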

How the data were processed

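The 18 libraries of total RNA fall into 6 groups of 3, by the labels. The values deposited by the authors are TPM, which the table of units carries as other, since a leading total row doubles each sum; that row was left out. Per the submitters' processing notes, FastQC 0.11.5, Bowtie2 2.1.0 and RSEM 1.2.31 were used with mm10 and GRCm38.p5; settings, strand and annotation are not given in the sources used here. TPM keeps no depth, so depth is unknown.

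Libraries were scaled by a trimmed mean of log ratios (30% of ratios, 5% of abundances). Genes with at least 1 TPM in 3 of the 6 static libraries were fitted with limma 3.58.1 (R 4.3.3) on log2(scaled TPM + 1), a scale that understates changes of low genes, with 6 group means, all 18 libraries, 12 residual degrees of freedom and limma's trend of variance on mean. The threshold for a call was a Benjamini-Hochberg adjusted p under 0.05. An exact permutation test of 3 against 3 cannot go below 0.1. Of 49845 names 47120 matched GENCODE vM21 as given, 452 by an older symbol and 2273 not; 26 had become dates. The script was tested on simulated data.

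The comparison and the 49 gene lists were chosen with earlier results of these data known. Named are the 15 largest rises and falls among called genes whose mean reached 5 TPM and whose groups did not overlap, genes under 0.5 TPM in one group and at least 5 TPM in the other, and up to 4 passed and 2 other members per list; other genes were chosen after their values were seen. Some genes that these rules name are not reported here.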

Additional observations from a re-analysis of the deposited data

Results flagged for a closer look

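For 10 named genes the knockout difference was not the same in flow and in static culture, by limma's test of the difference itself with adjustment over all genes. Flow minus static, the difference changed by -1.34 for Ctgf (adjusted p = 0.000634), -1.17 for Dusp6 (0.000583), -0.962 for Ier3 (0.00746), -0.885 for Cyr61 (0.0247), -0.878 for Cldn4 (0.0467), -0.711 for Fst (0.0209), -0.71 for Ccng2 (0.0467), -0.694 for Ccnd1 (0.0101) and -0.666 for Hmgcs1 (0.0247), and by 1.61 for Hspa1b (3.65e-05).

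Hmgcs1, an enzyme of sterol synthesis, changed sides. In static culture it stood at 150.3, 162 and 165 TPM in wild type and 206, 196 and 223 TPM in the knockout, and under flow at 129, 121 and 120.3 against 99.8, 109.8 and 95.1 TPM, so that the knockout was higher in static culture and lower under flow, and each contrast passed. Cldn4, a tight junction claudin, did not pass in static culture (0.30, adjusted p = 0.0933) and was lower in the knockout under flow (-0.58, adjusted p = 0.00347).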

How the results depend on the processing

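The static count of 2840 ranged from 1909 (without wild-type static replicate 1) to 3859 (without Ift140 knockout flow replicate 3) when single libraries were left out, with falls from 967 to 1988. The fall of Ift140 kept its direction and its call in every alternative, at -0.99 with a pseudocount of 5 to -1.43 with 0.1. The chromosome 17 median minus that of the other chromosomes, 0.332, was 0.362 with a pseudocount of 0.1, 0.257 with 5, 0.171 with no filter on low values, 0.367 for genes whose mean reached 5 TPM, and 0.408 for protein-coding genes only, an alternative chosen after seeing the data. Calls of at least 2-fold, 428, were 145 with a pseudocount of 5, 590 with 0.1 and 219 among genes whose mean reached 5 TPM. Flow calls, 2341, were 566 with only the groups compared. The 30 flow minus static calls were 15 with the deposited scaling, 54 with no filter, 4 with only the groups compared, and 10 (without Ift140 knockout static replicate 1) to 70 (without Ift140 knockout flow replicate 3) when libraries were left out. The cause of these changes was not tested. Neither Ift140, the chromosome 17 shift nor any named gene that passed changed direction in any alternative run. With the deposited scaling the balance of calls turned from more falls to more rises (1533 against 1078) and the median over all genes from -0.02 to 0.04. The medians of the dynein-2, basement membrane and endothelial lists, all close to 0, changed sign between scalings.

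Libraries share replicate numbers across groups, but nothing in the labels says that a number marks a shared culture, and deviations of same-numbered static libraries correlated at 0.0992, 0.0208 and 0.0621, so the pairing was not used. With the replicate block 2643 static genes passed, and flow minus static gave 12. Wild-type static replicate 1 was the best match of knockout replicates 1 and 2, so not every library correlated best with its own number. Depth is unknown and limits low values most.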

Other observations

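Collagen IV chains rose beside the loss of their chaperone gene, though both were chosen after their values were seen. Col4a1 stood at 55.6, 55.3 and 45.9 TPM in wild type and 117, 101 and 115 TPM in the Ift140 knockout (1.08, SE 0.17, adjusted p = 0.000406 in limma), and Col4a2 at 34.1, 37.8 and 37.8 against 73.2, 76.3 and 76.3 TPM (1.02, SE 0.20, adjusted p = 0.00246). The Dync2h1 line stood at -4.23 and -4.54 for them against the same wild-type libraries, and the lines differed (adjusted p = 5.01e-12 and 2.42e-11).

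The imprinted gene Peg3 rose from 16.7, 14.3 and 18.4 to 38.9, 41.5 and 42.5 TPM (1.27, SE 0.18, adjusted p = 0.000156). Of the 13 kept imprinted genes 2 rose and 1, Grb10, fell, beside 8.98% and 9.51% over all genes. Peg3 lay at -1.29 in the Dync2h1 line, and the lines differed (adjusted p = 4.78e-08).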
